A study of Mus musculus with 60 samples.

Results

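The 8 arrays described here followed mouse erythroleukemia cells through late exposure to dimethyl sulfoxide (DMSO), at 36 h and 24 h, and were chosen by their labelled chemical and time from 60 arrays in all. Each array set RNA of treated cells against RNA of the same line before treatment. The cells were T-3-Cl-2-0.fl, labelled as a murine erythroleukemia line with high inducibility of differentiation, grown in serum-containing RPMI1640 and exposed to 1.5% DMSO (1 of the labels prints the dose differently). Both times had 4 arrays: in replicates 1 and 2 the treated RNA carried the dye Cy5 and the RNA from before treatment Cy3, and in replicates 3 and 4 the dyes were exchanged. The rest of the series, used here for comparison and for the spread between conditions, consists of DMSO at 1, 6 and 12 h and of 5 mM hexamethylene bisacetamide (HMBA) and 30 nM trichostatin A (TSA) at 1, 6, 12, 24 and 36 h, with 4 arrays per condition and 15 conditions in total. The 4 arrays of a condition measured 1 pair of extracts, so they count as 1 value and the SD between them is technical. All groups come from 1 cell line, no untreated culture of matching age is labelled, and time in culture and the chemical cannot be told apart.

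Murine erythroleukemia cells are virus-transformed precursors of red blood cells, blocked before the last steps of maturation. Inducers such as DMSO and HMBA let them resume it: the cells leave the cell cycle over some days and turn on globin and the enzymes of heme synthesis. TSA inhibits histone deacetylases and is another inducer of this line of cells. The arrays carry cDNA clones known by their plate and well only. None of the 22656 clones of the deposited table could be matched to a gene, so the erythroid maturation, proliferation and blood cell marker genes could not be read, and the label of the cell line was not checked against markers. Clone names are given for 4 clones, and all others are described by counts and ranges.

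All values are log2 ratios of treated over untreated RNA, so that 1 is a doubling and -1 a halving. Of 22450 clones on the slides, 14582 were tested because at least 3 of 4 arrays listed them in each condition, and 13783 were listed on all 8 late DMSO arrays. Each late DMSO array listed between 19771 and 20980 clones, with a median intensity of the RNA before treatment between 489 and 989. The SD of the log2 ratio across clones lay between 0.357 and 0.662. Arrays of the same dye orientation correlated across clones at 0.50 and 0.619 at 36 h and at 0.280 and 0.635 at 24 h. The lowest of these is the pair of 24 h arrays with treated RNA in Cy5, where replicate 2 stood apart. Arrays of opposite orientation correlated at 0.166 to 0.195 at 36 h and 0.0645 to 0.196 at 24 h (clones share slide, dye and position, so these are descriptions). The DMSO arrays also had another layout than the others. All 9515 of the tested clones from plates beginning with H3 that could be placed lay on the first slide with DMSO, while 2117 of the H3 clones lay on the second with HMBA and 2381 with TSA. The intensities before treatment correlated at 0.762 between DMSO and HMBA and at 0.791 between DMSO and TSA, against 0.952 between HMBA and TSA (14582 clones). Differences between DMSO and the other chemicals and this layout cannot be told apart.

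On the mean of 36 h and 24 h of DMSO, 221 clones were higher and 300 were lower than before treatment. These 521 clones are 3.57% of the 14582 tested, with 1.52% higher and 2.06% lower (limma on the mean of 36 h and 24 h, Benjamini-Hochberg adjusted p below 0.05; 2689 clones at an unadjusted p below 0.05). For the clones called higher the median log2 ratio was 0.62 (36 h) and 0.99 (24 h), and for those called lower it was -0.64 (36 h) and -0.75 (24 h). A call on the mean need not hold at each time. Among the clones called higher the level ran from -0.27 to 1.69 at 36 h and from 0.37 to 2.05 at 24 h. Some of them were thus below the level before treatment at 36 h. Among those called lower it ran from -2.44 to -0.02 at 36 h and from -2.71 to -0.27 at 24 h. The means of the called clones ran from -2.49 to 1.80. A fall of more than 1 log2 unit was found for 67 of the 300 lower clones and a rise of that size for 49 of the 221 higher ones. On single arrays, 154 of the 221 higher clones were above the level before treatment on all 8 arrays, and 229 of the 300 lower ones were below it on all 8. Some called clones were not listed on all 8 arrays and could not meet this count. The calls were made on the mean of these same arrays, which favours a shared sign, so both counts are descriptions without a test. The counts over all clones listed on all 8 arrays are given below, with no size rule.

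Most of the called clones lay on the same side of the level before treatment earlier in the exposure. After 6 h and 12 h of DMSO, 192 of the 221 higher clones were above the level before treatment at both times and 267 of the 300 lower ones were below it at both. Of all 14582 tested clones 5099 were above and 5134 below it at both of these times, and since all DMSO times may share RNA from before treatment, no test was made of this. The lower clones were brighter before treatment: their median intensity was 2131, against 773 for the higher clones and 964 for all tested clones. Of the lower clones 140 of 300 lay in the brightest 25% of the tested clones, and of the higher ones 40 of 221. This intensity comes from the same late DMSO arrays and divides the ratios behind the calls. A high reading of it lowers the ratio, and the part of this in the difference was not tested. The spread behind these calls came from the other 13 conditions around an additive model of time and chemical, since both DMSO times are single values and are assumed to vary like the others. Arrays disagreed in some of these conditions. At 1 h of HMBA the arrays with treated RNA in Cy3 correlated at -0.322 and opposite orientations at -0.538 to 0.341. At 1 h of DMSO opposite orientations correlated at -0.298 to -0.237. Without HMBA at 1 h the count was 660. The 95% interval of a clone's late level reached a median of 0.32 log2 units to either side. The count depended on the arrays and the model used. It was 275 of 12686 tested clones without replicate 3 and 293 of 13191 without replicate 4 of every condition. Of all 14582 clones it was 171 with an early and a late level for each chemical, 870 without the HMBA arrays and 1759 with replicate number as a block. That last fit works on single arrays, with a correlation between arrays of a condition estimated at only 0.0193, and so takes them as nearly independent although they share extracts. With the DMSO conditions alone, which leave few degrees of freedom, 0 clones passed (3705 at an unadjusted p below 0.05).

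**Figure D1:**
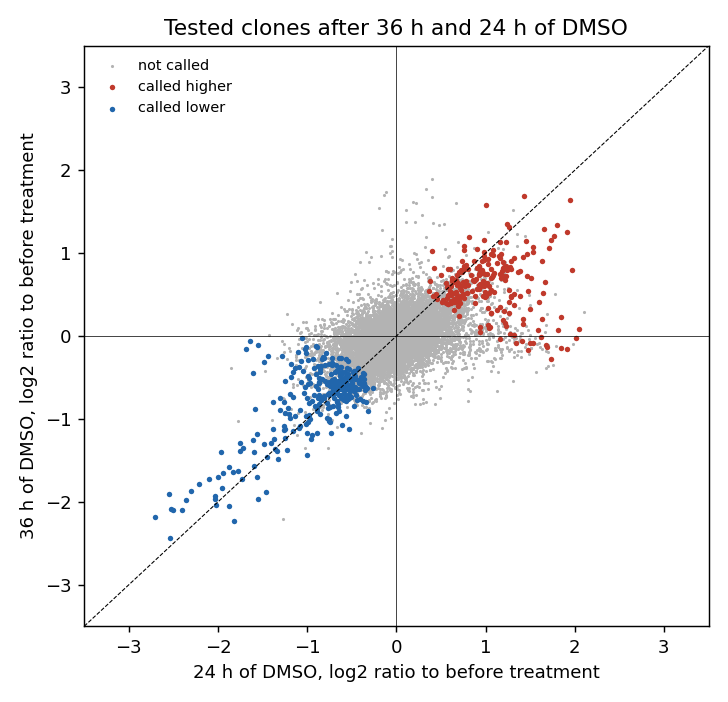
Log2 ratio to before treatment of the 14582 tested clones at 36 h (vertical) and 24 h (horizontal) of DMSO; each point is 1 clone, red and blue points are the 221 clones called higher and the 300 called lower, and the dashed line marks equal values. The blue points at the lower left lie near the dashed line down to below -2, while many red points lie below it.

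A size rule on every array left 32 clones that had moved by at least 1 log2 unit in the same direction on all 8 arrays, 0.232% of the 13783 clones listed on all of them. Of these 32, 29 were lower and 3 were higher. No clone moved by that size in opposite directions with the dye at both times. With the rule at 0.5 log2 units the count was 142 (1.03%), 84 lower and 58 higher, with 7 clones following the dye. With no size rule it was 1461 (10.6%), 779 lower and 682 higher, but 1009 other clones (7.32%) had signs that followed the dye on all 8 arrays. Without a size rule, a shared sign was thus only somewhat more frequent than a sign that followed the dye. Next to the rule, the last clone inside had its smallest array value at 1.10 and the next outside at 0.98 for higher clones, and at -1.01 and -0.999 for lower ones. The clones were picked by these same array values, so the counts are descriptions without a test.

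The clone with the largest rise called by limma was H3055A12. Its log2 ratio was 1.77, 2.09, 1.26 and 1.44 in replicates 1 to 4 at 36 h, against 2.42, 2.05, 1.62 and 1.71 at 24 h. All 8 arrays were more than 1 unit above the level before treatment, those with treated RNA in Cy5 somewhat higher at both times, and the 2 times overlapped. The means were 1.64 ± 0.37 at 36 h and 1.95 ± 0.36 at 24 h (SD, n = 4 technical arrays each). The late level was 1.80 (SE 0.22, 95% interval 1.31 to 2.28), a 3.47-fold rise (limma adjusted p = 0.00608). After 1, 6 and 12 h of DMSO the clone stood at 0.46, 1.18 and 1.78, so it was near its late level by 12 h. Its late mean of 1.80 under DMSO compares with 2.56 under HMBA and 1.70 under TSA.

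H3134A03 was the other clone named for its rise. It had 0.89, 1.32, 1.41 and 1.40 at 36 h, against 0.96, 1.73, 2.33 and 2.64 at 24 h. Replicate 1 was the lowest array at both times, below 1 unit each time, so this clone is called by limma but is not among the 32. Its means were 1.25 ± 0.24 at 36 h and 1.91 ± 0.74 at 24 h (SD, n = 4 technical arrays each). The late level was 1.58 (SE 0.22, 95% interval 1.09 to 2.08), a 3.00-fold rise (limma adjusted p = 0.00767). With plate-row medians removed it was 1.14 (limma adjusted p = 0.0176), the lowest of the alternatives, which ran up to 1.94. It too was already high earlier, with 1.02 after 6 h and 1.66 after 12 h. The late mean was 1.58 under DMSO, against 1.44 under HMBA and 0.44 under TSA.

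The deepest fall was that of H4016D11. It had -2.26, -2.54, -2.48 and -2.48 at 36 h, against -2.19, -2.99, -2.70 and -2.27 at 24 h. All 8 arrays were below -2, in either dye orientation, and the 2 times overlapped. The means were -2.44 ± 0.13 at 36 h and -2.54 ± 0.38 at 24 h (SD, n = 4 technical arrays each). The late level was -2.49 (SE 0.34, 95% interval -3.25 to -1.73, limma adjusted p = 0.00767). After 1, 6 and 12 h of DMSO the clone stood at -0.63, -2.06 and -2.78. HMBA gave -2.05 after 6 h, -1.34 after 12 h, -0.32 after 24 h and 0.08 after 36 h, so the low value was not kept. TSA gave values between -0.40 and -0.04 up to 12 h, then 1.48 after 24 h and 1.42 after 36 h.

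H3038C06, in another plate, had a like course. It had -2.16, -2.03, -2.30 and -2.24 at 36 h, against -2.99, -2.41, -2.80 and -2.64 at 24 h. Every array at 36 h was less low than every array at 24 h, although the limma test of that difference gave an adjusted p of 1.00. The means were -2.18 ± 0.12 at 36 h and -2.71 ± 0.25 at 24 h (SD, n = 4 technical arrays each), and the late level was -2.45 (SE 0.37, 95% interval -3.26 to -1.63, limma adjusted p = 0.00933). HMBA gave -2.12 after 6 h, -1.22 after 12 h, -0.44 after 24 h (single arrays from -1.11 to -0.04) and 0.09 after 36 h. TSA gave 1.59 after 24 h and 1.52 after 36 h. Both clones were thus low up to 36 h with DMSO, while their HMBA means lay between -0.44 and 0.09 at the late times and their TSA means between 1.42 and 1.59.

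**Figure D2:**
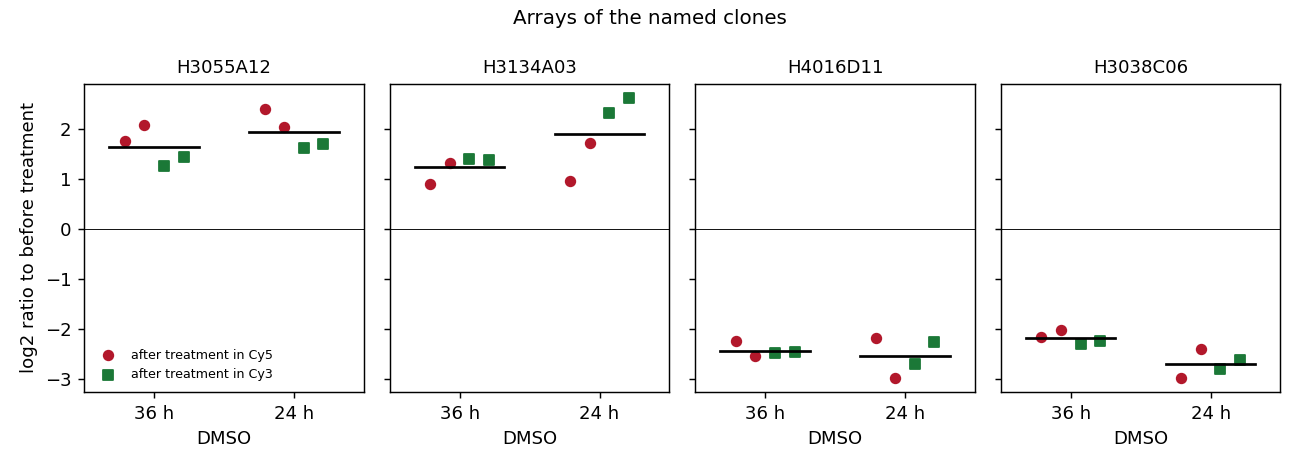
Log2 ratio to before treatment of the 4 named clones on each DMSO array at 36 h and 24 h; red circles are replicates 1 and 2 (treated RNA in Cy5), green squares replicates 3 and 4 (treated RNA in Cy3), and bars the mean of the 2 dye orientations. Both fallers lie at or below -2 on all 8 arrays, and H3134A03 spreads widest, from 0.96 to 2.64 at 24 h.

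The 29 clones that were lower on all 8 arrays were low from 6 h onwards. After 1, 6, 12, 24 and 36 h of DMSO their median was -0.45, -1.63, -2.0, -1.96 and -1.83. All 29 were below the level before treatment at both 6 h and 12 h. At 36 h 23 of the 29 were closer to 0 than at 24 h, by amounts that no test called. They came from 24 plates and 27 plate rows, 20 of them in H3 plates and 9 in plates beginning with H4. The plate with most of them held 4, and the part of position was not tested. They were bright before treatment: their median intensity was 4365 (range 468 to 26282), against 964 for all tested clones, and 19 of 29 lay in the brightest 25% and 0 in the dimmest 25%. These intensities too come from the late DMSO arrays and divide their ratios, and the part of this was not tested. How far dimness before treatment limits the falls that can be read was not tested.

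By their values on the 8 late TSA arrays the 29 clones fell into 3 courses. Of these clones 16 were above the level before treatment on every late TSA array that listed them, 7 were below it on every one, and 6 had arrays on either side. A tested clone could be missing from 1 of the 4 arrays of a condition. Under DMSO the 3 medians were close to each other, with -1.89, -1.88 and -1.56 at 36 h and -2.07, -2.0 and -1.69 at 24 h, in that order. The 16 clones ranged over single arrays from -2.54 to -1.07 at 36 h and from -2.99 to -1.20 at 24 h with DMSO, against 0.35 to 1.74 at 36 h and 0.21 to 2.11 at 24 h with TSA. That these ranges do not overlap follows from how the 16 clones were chosen. After 6, 12, 24 and 36 h of HMBA the median of these 16 clones was -1.73, -1.07, -0.54 and 0.01. The 7 clones had low medians with all 3 chemicals: HMBA gave -1.69 (36 h) and -1.93 (24 h) and TSA -1.68 at both times. The 6 mixed clones had HMBA medians of -1.01 (36 h) and -0.89 (24 h) and TSA medians of 0.29 (36 h) and 0.03 (24 h). The 16 clones came from 12 plates and included both named fallers. All chemicals may share RNA from before treatment, and the division was made on TSA values after they were seen, so it carries no test.

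**Figure D3:**
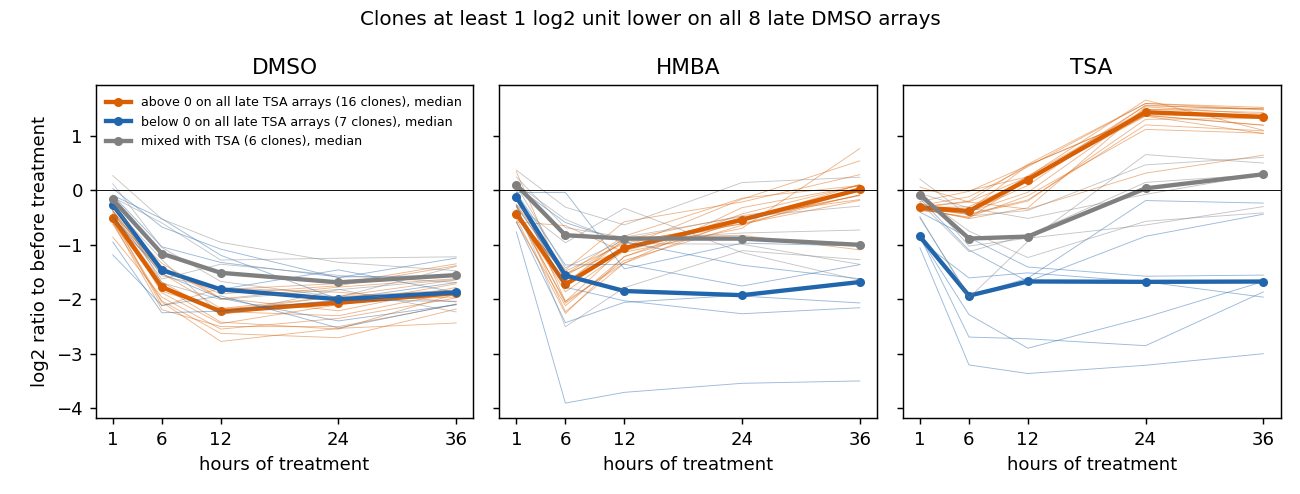
Time courses of the 29 clones that were at least 1 log2 unit lower on all 8 late DMSO arrays, with DMSO, HMBA and TSA; thin lines are clones (mean of 4 arrays), thick lines the medians of the 16, 7 and 6 clones with late TSA arrays all above, all below or on both sides of 0. With DMSO all 3 medians lie between -2.07 and -1.56 at 24 h and 36 h, while with TSA they separate to 1.34, -1.68 and 0.29 at 36 h.

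The 3 clones that were at least 1 unit higher on all 8 arrays came from 3 plates, and H3055A12 was among them. Their array values ran from 1.10 to 2.09 at 36 h and from 1.10 to 2.42 at 24 h. After 1, 6, 12, 24 and 36 h of DMSO their median was 0.40, 1.18, 1.42, 1.66 and 1.35. All 3 were above the level before treatment on every late HMBA array that listed them, and 1 of them on every such TSA array.

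No clone differed between 36 h and 24 h of DMSO past the threshold. As for the late level, the spread behind this test came from the other conditions. Of 14582 clones, 0 were called (0%; limma, lowest adjusted p = 0.206), and 607 (4.16%) had an unadjusted p below 0.05. The 95% interval of a clone's difference reached a median of 0.63 log2 units to either side, before any adjustment for the number of clones. Differences as large as -2.07 did not pass (adjusted p = 0.206), so with 1 extract per time changes below that size may go uncalled. With the replicate number as a block 2 clones passed, and with the Cy3 arrays alone 7, all of them lower at 36 h. The 10 clones with the smallest p came, all 10, from plates beginning with H31, which hold 26.9% of the tested clones. The first of them was at 0.07 at 36 h and 1.81 at 24 h, a difference of -1.73 (SE 0.23). This clone and those ranked 2 (the difference of -2.07), 4, 5 and 6 were listed on 3 of the 4 arrays at 24 h. For these clones 1 dye orientation at 24 h rested on 1 array. Of the 10, 8 were lower at 36 h. Plate rows, read from the clone names and not from spot positions, accounted for 34.2% of the variance of the difference, against 13.99% of the late level. They accounted for 11.4% of the variance at 36 h and 23.0% at 24 h. These shares were not compared with what 1893 plate rows over 14582 clones would take by their number alone. The part of position in these differences was not tested.

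The ratios were spread less widely at 36 h as a whole. This held for single arrays too, with an SD of 0.357 to 0.504 at 36 h and 0.508 to 0.662 at 24 h. The part of array noise in this was not tested. The SD over all tested clones was 0.292 at 36 h and 0.390 at 24 h. A level of at least 1 was reached by 61 clones at 36 h and 281 at 24 h, and a level of -1 or less by 75 at 36 h and 145 at 24 h. Of all 14582 tested clones 8523 were closer to 0 at 36 h than at 24 h. Among the 221 clones called higher, 83.7% (185) were closer to 0 at 36 h, but this share was 58.9% of the 416 clones called when all arrays were first scaled to the same spread. Among the 300 called lower, 191 were closer to 0 at 36 h, a share near that of all tested clones. The share for risers was 76.9% with plate-row medians removed and 87.6% without replicate 2 at 24 h. Risers were called on a mean that includes the wider 24 h values, so this share is in part fixed by the choice.

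Some clones met the size rule at 1 time only. At 36 h 58 of the clones listed there (0.402%) were at least 1 unit away in the same direction on all 4 arrays, and at 24 h 66 (0.474%). Beside the 32 shared clones, 20 met the rule at 36 h only (0.145% of 13783; 17 higher, 3 lower) and 34 at 24 h only (0.247%; 21 higher, 13 lower). Clones of 24 h only are by their choice smaller at 36 h on at least 1 array, so their lower size there is no result. For the 21 higher ones the median was 0.81 (36 h) and 1.36 (24 h), and 20 of 21 were above the level before treatment at 6 h and 12 h as well. For the 13 lower ones it was -1.08 (36 h) and -1.38 (24 h), and for the 3 that were lower at 36 h only -1.72 (36 h) and -1.55 (24 h). These counts grow when an array is left out: 90 clones in place of 54 without replicate 1, 100 without replicate 2 of both times, and 103 without replicate 2 at 24 h alone.

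Of the 17 clones that were higher at 36 h only, 14 had been below the level before treatment at 6 h and 12 h of DMSO. After 1, 6, 12, 24 and 36 h of DMSO the median of these 14 was -0.10, -0.34, -0.35, 0.25 and 1.54. The median over these 14 clones was 1.72, 1.61, 1.24 and 1.61 on replicates 1 to 4 at 36 h, against 0.77, 0.18, 0.23 and 0.08 at 24 h. Single values ran from 1.01 to 2.19 at 36 h and from -2.06 to 1.96 at 24 h, so the times overlapped for part of the clones, and replicate 1 was the highest array at 24 h. The difference between 36 h and 24 h had a median of 1.27 (0.22 to 1.86). None of the 14 passed the test of that difference (limma, lowest adjusted p = 0.946, 3 at an unadjusted p below 0.05), and none was called in the late level. The spread in both tests came from the other conditions around the additive model of time and chemical. The HMBA median of these 14 was -0.22 at 24 h and 2.63 at 36 h, and the TSA median 3.25 and 4.46. Such unlike courses depart from an additive model and widen the SE, which lay between 0.57 and 0.94 for the difference. The tests therefore cannot decide whether the DMSO change exceeds the spread under DMSO itself. The other 3 clones of 36 h only were already up, with medians of 1.15, 1.23, 1.02 and 1.58 after 6, 12, 24 and 36 h.

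These 14 clones also had high values with TSA at both late times, and a high median with HMBA at 36 h but not at 24 h. After 6, 12, 24 and 36 h of HMBA their median was -1.40, -1.03, -0.22 and 2.63. For TSA it was 0.46, 0.66, 3.25 and 4.46 after the same times. All 14 were above the level before treatment on every late TSA array that listed them. Single values there ran from 1.88 to 5.03 at 36 h and from 1.24 to 4.02 at 24 h. Of all 14582 tested clones 812 were above the level before treatment on every late TSA array that listed them. The chemicals may share RNA from before treatment, so this is a description. With HMBA 13 of the 14 were above the level before treatment on every array that listed them at 36 h. At 24 h 10 were below it on every such array. The clones were of ordinary brightness, with a median intensity of 778 before treatment. They came from 10 plates, and 13 of the 14 from plates H3113 to H3126, which hold 6.91% of the tested clones (1007). This window was drawn after the clones were seen. Whether these clones stand for 1 transcript or several, and the part of their shared position in the pattern, was not tested.

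**Figure D4:**
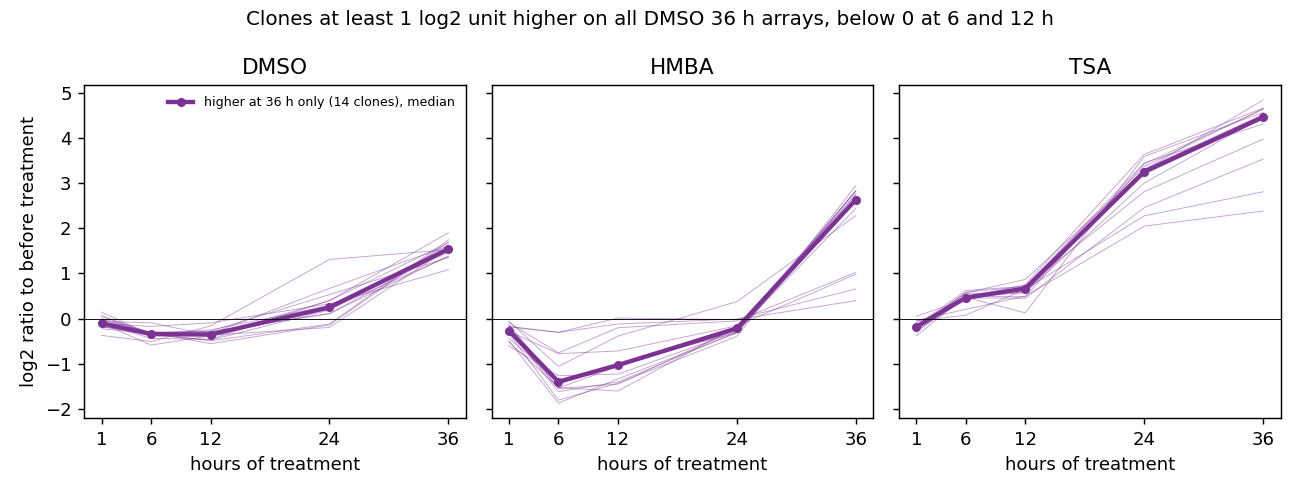
Time courses of the 14 clones that were at least 1 log2 unit higher on all 4 DMSO arrays at 36 h but not at 24 h and lay below 0 at 6 h and 12 h, with DMSO, HMBA and TSA; thin lines are clones (mean of 4 arrays), thick lines medians. At 36 h the medians reach 1.54 (DMSO), 2.63 (HMBA) and 4.46 (TSA), and at 24 h 0.25, -0.22 and 3.25.

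Late DMSO was set against the late values of the other inducers in the same fit, where the other chemical's late level is its fitted value. Against TSA, 63 clones (0.432%) differed: 56 were lower with DMSO (0.384%) and 7 higher (0.048%), with 1800 at an unadjusted p below 0.05. The 56 had a median difference of -2.05 (-3.88 to -0.77), and their median late level was -0.87 under DMSO, against 0.14 under HMBA and 1.18 under TSA. All 56 were above the level before treatment with TSA and 50 were below it with DMSO. Of the 56, 32 were also called lower with DMSO itself and 18 were among the 29 clones lower on all 8 arrays, including all 16 that lay above the level before treatment on every late TSA array, whose choice already fixed opposite signs with the 2 chemicals. For H4016D11 the difference was -3.77 (95% interval -4.76 to -2.77) and for H3038C06 -3.88 (-4.94 to -2.81), both with a limma adjusted p of 0.0178. The 7 higher clones had a median difference of 1.01, with medians of 0.56 with DMSO and -0.48 with TSA. The split moved with the scaling, to 83 lower and 33 higher of 116 clones with arrays scaled to the same spread and 91 lower and 45 higher of 136 with plate-row medians removed. The count was 99 without replicate 1, 34 without replicate 3, 29 without replicate 4, 114 without HMBA at 1 h and 920 with the replicate block.

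Against HMBA, 0 clones passed (0%; limma, lowest adjusted p = 0.0922), while 1487 had an unadjusted p below 0.05. The 95% interval of this difference reached a median of 0.41 log2 units to either side. The difference was -2.54 for H4016D11 (95% interval -3.54 to -1.54, limma adjusted p = 0.0999) and -2.40 for H3038C06 (-3.46 to -1.33, limma adjusted p = 0.142). All 16 clones that lay above the level before treatment on every late TSA array had an unadjusted p below 0.05 against HMBA, but none an adjusted p below the threshold. Over all 14582 tested clones 10.2% had such an unadjusted p. The 16 were chosen by low late DMSO values, which enter this difference, so their p values follow in part from the choice. For the clones named for their rise the intervals were -1.19 to 0.08 for H3055A12 and -0.41 to 0.87 for H3134A03. The count was 8 without replicate 1 and 474 with the replicate block, and 28 with clones listed on all arrays, so the count of 0 depends on the fit.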

How the data were processed

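Two-colour cDNA arrays compared RNA after and before treatment, 2 slides and 22450 clones per array. The deposited slide tables hold, per the file headers, a control and a signal intensity of each clone (linear scale), where control is the RNA before treatment; the reading of the images and any removal of local background are not stated. The authors also deposited a ratio of after over before treatment per clone and array, with column medians near 1 and its centring not stated. Intensities were corrected by normexp (offset 50), the log2 ratio was normalized by loess (span 0.3) within each slide and turned to after over before treatment, and each condition was taken as the mean of its 2 dye-orientation means (limma 3.58.1, R 4.3.3). Clones listed on at least 3 of 4 arrays of all 15 conditions were fitted with time and chemical plus own terms for DMSO at 24 h and 36 h (6 residual degrees of freedom, 3.83 prior), with Benjamini-Hochberg adjustment over all clones and two-sided tests. The number of arrays limits the precision. Only the fit was tested on simulated data, which were values per condition. Normalization, the averaging of dye orientations and the size rule were not tested in this way.

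Clones were named by rule: among called clones with the same sign on all 8 arrays, the 2 with the largest rise and the 2 with the largest fall. The members, lists and rules were chosen with earlier results of these data known. Same-numbered arrays deviated together (correlations of 0.392, 0.116, 0.265 and 0.216), so the block on replicate number was fitted too; the number also fixes the dye, and within a dye the correlations were 0.035 and -0.080. Where the labels name no separate cultures, the 4 arrays are technical. The deposited ratio served as an alternative. Other alternatives changed the background, filter, scaling, position, dye, arrays, conditions and model. Gene lists could not be used, and clone sequences were not used here.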

Additional observations from a re-analysis of the deposited data

Results flagged for a closer look

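H3134A03 at 36 h of DMSO had 1 array far from the others: replicate 1 was at 0.89 and the other 3 between 1.32 and 1.41, a gap of 0.836 of the whole range, above Dixon's 95% critical value for 4. Of 8 groups of 4 arrays examined this was 1, and chance flags about 1 group in 20. H4016D11 differed between late DMSO and late TSA by -3.77 log2 units (limma adjusted p = 0.0178), with late means of -2.49 with DMSO and 1.45 with TSA. H3038C06 differed by -3.88 (limma adjusted p = 0.0178), with -2.45 with DMSO and 1.55 with TSA. Their difference from TSA and the slide layout of the DMSO arrays cannot be told apart.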

How the results depend on the processing

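The count of 521 for the late level was 792 without the dimmest 25% of clones, 1024 with arrays scaled to the same spread, 171 with an early and late level per chemical, 870 without HMBA, 0 with DMSO alone (added after seeing the data), 1759 with the replicate block, 630 without replicate 2 at 24 h (added after seeing the data), and 275 to 593 leaving out 1 replicate number. Between 36 h and 24 h the 0 calls became 7 with Cy3 arrays alone and 2 with the block, and stayed 0 to 0 leaving out replicates. Against HMBA the 0 calls became 28 with clones listed on all arrays, 32 without the dimmest 25%, 21 with Cy5 arrays alone, 474 with the block, and 0 to 8 leaving out replicates. Against TSA the 63 calls became 101 without background correction, 103 with the deposited ratios, 120 with clones listed on all arrays, 187 without the dimmest 25%, 136 with plate-row medians removed, 116 with scaled arrays, 26 with Cy3 arrays alone, 205 with an early and late level per chemical, 114 without HMBA at 1 h, 182 without all 1 h conditions, 920 with the block, and 29 to 99 leaving out replicates. The 32 clones were 64 with Cy5 arrays alone, 62 with Cy3 arrays alone, 142 at 0.5 log2 units, and 36 to 39 leaving out replicates. The 54 clones of 1 time were 203 with Cy5 arrays alone, 500 with Cy3 arrays alone, 334 at 0.5 log2 units, 98 by orientation means, 103 without replicate 2 at 24 h (added after seeing the data), and 70 to 100 leaving out replicates. By its definition the size rule is easier to meet with fewer arrays. Without the dimmest 25% the fit and the adjustment ran over 10936 clones, and with clones listed on all arrays over 9593. Leaving out 1 replicate number left between 12475 and 13191 clones in the fits. Why the counts moved was not tested for any setting. Of 21 alternatives each, both named fallers kept their direction in all and lost the threshold in 1, DMSO alone (limma adjusted p = 0.103 for each). Each named riser lost it in 2, with an adjusted p of 0.104 (H3055A12) and 0.0549 (H3134A03) under the early and late level per chemical, and 0.100 and 0.110 with DMSO alone. Between 36 h and 24 h a difference of -2.07 log2 units did not pass the adjusted threshold, so the comparison of 1 extract per time leaves even large changes uncalled. The clone with that difference was listed on 3 of the 4 arrays at 24 h.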
